A study of Mus musculus with 8 samples.

Results

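A stretch of mouse chromosome 1 that holds the genes for cathepsin E (Ctse), renin (Ren1) and chitinase-like 1 (Chil1) was examined in thioglycollate-elicited peritoneal macrophages. Its members are the protein-coding gene rows that start between positions 131500000 and 135000000 (GRCm38), which gave 64 of the 54532 gene rows deposited. The stretch was chosen by the position of Ctse, Ren1 and Chil1, whose values in these same libraries had already been seen. Their differences between libraries and genotypes are therefore given as a description, and no test of theirs is used as support. In brief, Ctse was low, and Ren1 and Chil1 near or at 0, in the same 2 wild-type libraries. These genes were expressed in the other 6 libraries, which are both wild type and knockout. No other member of the stretch showed such a step in those 2 libraries alone.

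Cells were taken from the peritoneal cavity after thioglycollate broth, an irritant that recruits macrophages, and RNA was sequenced from 8 samples. Each is named by a letter (M or F, which the labels leave unexplained), its Men1 genotype (WT or KO) and a number. The groups were M_WT (M_WT_5643, M_WT_6258 and M_WT_6255), M_KO (M_KO_5944, M_KO_5645 and M_KO_5642), F_WT (F_WT_5638) and F_KO (F_KO_5639), all with the same broth. Nothing in the labels says that the libraries came from separate mice, so tests measure the spread between these libraries, which may be technical. The labels name no strain, age, Cre driver or Men1 allele for any group. Men1 encodes menin, a scaffold of histone H3K4 methyltransferase complexes, and stood at 6.45 to 8.42 CPM in M_KO and 17.1 to 25.7 CPM in M_WT, with F_WT_5638 at 18.1 CPM and F_KO_5639 at 11.7 CPM. CPM are read counts scaled to library size, with TMM factors over all 8 libraries. Libraries held 18206427 to 22853583 counts. A count of 0 allows up to 3 counts, or 0.120 to 0.170 CPM depending on the library, and such limits cover counting error only. The macrophage markers Adgre1, Csf1r, Itgam, Cd68, Mertk, Fcgr1, Lyz2 and Cd14 summed to 17909 to 32119 CPM per library.

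Cathepsin E and renin are both aspartic proteases, enzymes that cut proteins with a pair of aspartate residues. Cathepsin E works in the endosomes of immune cells, and renin cleaves angiotensinogen in the first step of the hormone cascade that controls blood pressure. Chil1, also known as BRP-39 or YKL-40, is a secreted relative of the chitinases that binds chitin without cleaving it, and macrophages and neutrophils are known sources of it. Its neighbour Chit1 encodes chitotriosidase, an active chitinase.

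Promoter sequences are shown for Ren1 and Chil1, as members whose RNA went from 0 to clearly detected between libraries, and for Chit1, the chitinase beside Chil1 that was near 0 throughout. They come from RefSeq (GRCm38.p6) and run from 250 bases before to 50 bases after the annotated start, 5′ to 3′ on the plus strand. Capitals mark matches, on either strand, to 1 of 7 motifs: the TATA box TATAAA, the CCAAT box CCAAT, the ETS core GGAAGT, the C/EBP motif TTGCNNAA, the AP-1 motif TGANTCA, the cAMP response element TGACGTCA and the E-box CACGTG. The windows are chr1:133350424-133350723 for Ren1, chr1:134181906-134182205 for Chil1 and chr1:134110992-134111291 for Chit1.
Ren1: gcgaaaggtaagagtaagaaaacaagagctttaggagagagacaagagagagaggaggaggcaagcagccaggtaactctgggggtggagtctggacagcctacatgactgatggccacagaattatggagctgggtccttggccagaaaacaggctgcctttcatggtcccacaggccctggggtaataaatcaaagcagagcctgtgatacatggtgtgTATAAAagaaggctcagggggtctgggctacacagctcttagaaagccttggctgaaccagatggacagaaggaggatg
Chil1: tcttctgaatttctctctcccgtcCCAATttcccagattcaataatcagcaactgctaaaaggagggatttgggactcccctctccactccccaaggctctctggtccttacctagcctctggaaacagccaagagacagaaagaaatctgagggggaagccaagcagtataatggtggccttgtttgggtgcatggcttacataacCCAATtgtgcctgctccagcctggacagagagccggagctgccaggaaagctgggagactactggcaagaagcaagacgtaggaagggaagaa
Chit1: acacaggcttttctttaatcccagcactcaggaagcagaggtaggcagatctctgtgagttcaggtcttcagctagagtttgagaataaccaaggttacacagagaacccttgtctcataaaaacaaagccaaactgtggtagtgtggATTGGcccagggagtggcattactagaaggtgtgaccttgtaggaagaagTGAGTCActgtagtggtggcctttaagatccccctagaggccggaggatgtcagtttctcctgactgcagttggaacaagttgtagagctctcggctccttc

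The Ren1 window has a TATAAA at position -29 from the start. That motif occurs in 13.6% of the 32851 promoter windows of the table and in 4 of 67 windows of member genes, including that of Ren1. The Chil1 window has 2 CCAAT matches, at -226 and -43, and no TATAAA. The Chit1 window has a CCAAT match on the minus strand and an AP-1 match, TGAGTCA, at -52. CCAAT is common, at 37.4% of all windows, and TGANTCA is found in 7.81%. So the promoters of Ren1 and Chil1 shared none of these 7 motifs. RefSeq windows were matched for 52 of the 62 member symbols. They are reference sequence, and the counts do not show which sequence these mice carry.

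Ctse (ENSMUSG00000004552, 131638306 to 131675505, plus strand) was the first of the 3 genes along the chromosome. It stood at 129.1, 3.83 and 3.75 CPM in M_WT_5643, M_WT_6258 and M_WT_6255, at 95.1, 126.8 and 67.6 CPM in M_KO_5944, M_KO_5645 and M_KO_5642, at 92.8 CPM in F_WT_5638 and at 206.7 CPM in F_KO_5639. The 2 low libraries are both wild type, yet M_WT_5643 lay above every M_KO library, so that M_WT spanned M_KO on both sides. M_WT_6258 and M_WT_6255 still held 72 and 74 counts, so Ctse was low there and not absent. M_WT_5643 had 33.7 times the level of M_WT_6258 (95% Clopper-Pearson interval of the counts 26.6 to 43.2) and 34.5 times that of M_WT_6255 (27.4 to 44.0).

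Ren1 (ENSMUSG00000070645, 133350510 to 133360325, plus strand) starts 1.71 Mb further along and had 0 counts in both M_WT_6258 and M_WT_6255. It was at 9.79 CPM in M_WT_5643, at 8.71, 4.35 and 0.80 CPM in M_KO_5944, M_KO_5645 and M_KO_5642, at 3.65 CPM in F_WT_5638 and at 9.26 CPM in F_KO_5639. With 0 counts set to the limit of 3 per library, M_WT_5643 was at least 61.3-fold higher than M_WT_6258 and at least 64.5-fold higher than M_WT_6255. The knockout libraries were graded rather than alike, and M_KO_5642, with 20 counts, was the lowest of the 6 that expressed the gene. Some inbred mice carry another, near-identical renin gene, Ren2, and reads of such a gene could be counted to Ren1, so its level is uncertain.

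Chil1 (ENSMUSG00000064246, 134182176 to 134190181, plus strand) had 0 counts in M_WT_6258 and 2 in M_WT_6255. In the other libraries it was at 488.8 CPM in M_WT_5643, 943.2, 111.7 and 65.6 CPM in M_KO_5944, M_KO_5645 and M_KO_5642, 37.1 CPM in F_WT_5638 and 155.6 CPM in F_KO_5639. It had the highest mean of all members per gene length, with up to 335.8 FPKM in the deposited table, and was not detectable at this depth in M_WT_6258. M_WT_5643 was at least 3059-fold higher than M_WT_6258, and 4827 times M_WT_6255 with a counting interval of 1336 to 39862. The 6 expressing libraries themselves differed widely, from 37.1 to 943.2 CPM, in an order that did not follow genotype.

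**Figure D1:**
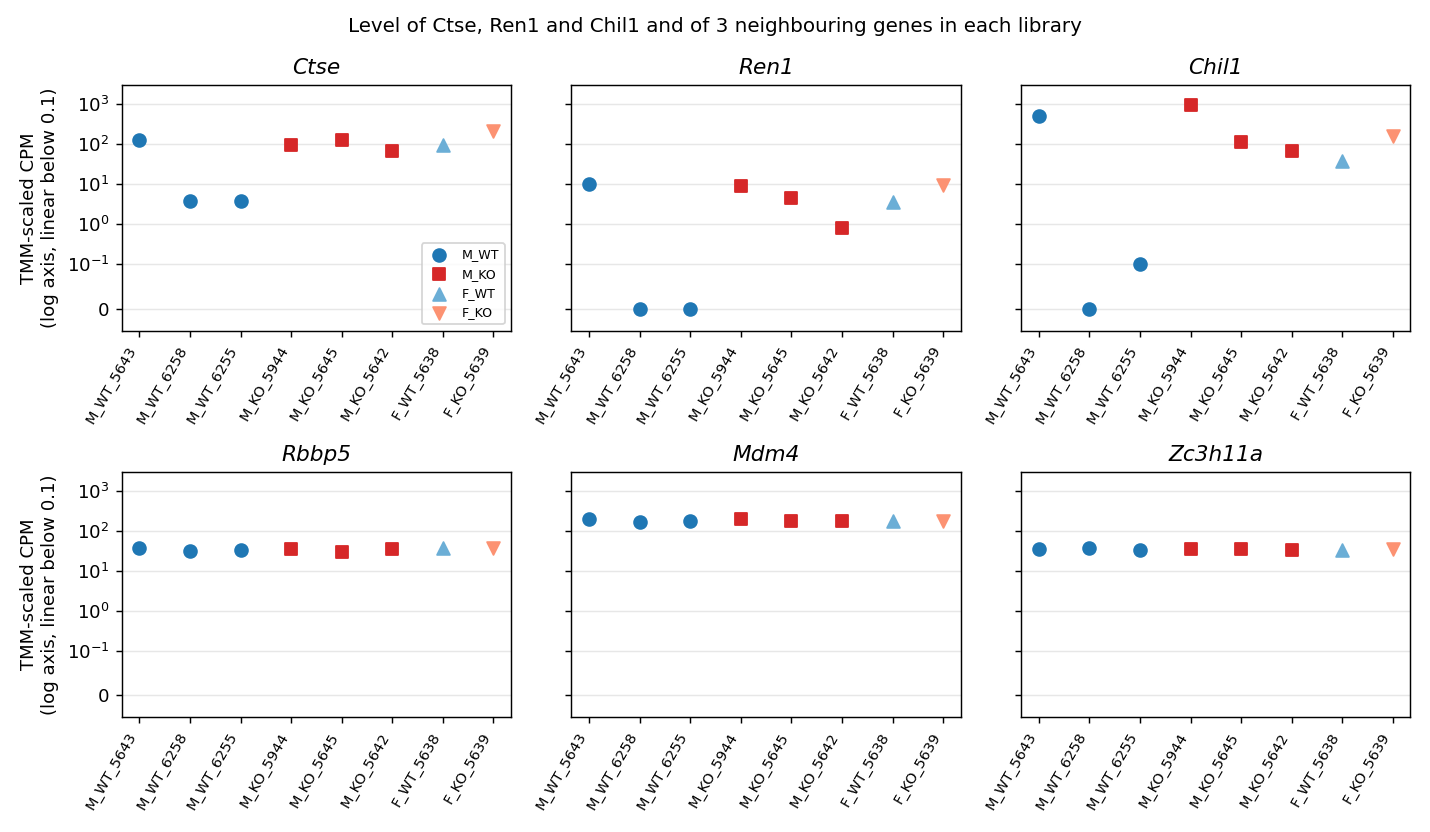
TMM-scaled CPM on a log axis (linear below 0.1) for each of the 8 libraries, with M_WT as circles, M_KO as squares, F_WT as an upward and F_KO as a downward triangle. Ctse, Ren1 and Chil1 drop in M_WT_6258 and M_WT_6255 alone, while Rbbp5, Mdm4 and Zc3h11a lie on a level line.

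The state of the 3 genes therefore split M_WT and did not separate genotypes. Wild-type libraries M_WT_5643 and F_WT_5638 expressed all of them, as did all 4 KO libraries, with Ren1 under 1 CPM in M_KO_5642. M_WT_6258 and M_WT_6255 are the only libraries whose numbers begin with 62, and the labels do not say what the numbers mark. Nor do they give the strain or breeding of any library, so whether these 2 share a genetic background with the other 6, which bears on what their 0 counts mean, is not known and was not tested. M_WT_6258 and M_WT_6255 were also the closest pair of libraries over all tested genes (Spearman 0.988). The next closest was M_WT_5643 with M_KO_5944 (0.984), and the least alike pair was at 0.949. Correlations were then taken over the 6 libraries other than M_WT_6258 and M_WT_6255 (n = 6 libraries, a description). The Pearson correlation of log2 CPM was 0.74 for Ctse with Ren1, 0.67 for Ren1 with Chil1 and 0.23 for Ctse with Chil1. Spearman's rho was 0.89, 0.77 and 0.54 in the same order. Within those 6, Ctse and Chil1 thus did not rank the libraries in the same way.

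The other members were not uniformly steady. Of the 36 with a mean of at least 1 CPM, 17 (47.2%) ranged less than 2-fold between their lowest and highest library, against 62.2% of all protein-coding genes at that level. Of the 64 members, 14 had no count in any library, 3 had at most 3 counts everywhere and 30 were on in all 8 libraries, where on means at least 1 CPM and off at most 3 counts. The 4 members that were off in at least 1 library and on in another were Ren1, Chil1, Slc26a9 and Syt2, 4 of the 50 with a count, against 2.35% of all protein-coding genes with a count. The 13 others lay between these states in some or all libraries: Pm20d1, Slc45a3, Klhdc8a, Tmcc2, Plekha6, Etnk2, Sox13, Prelp, Chit1, Mybph, 4933406M09Rik, Ube2t and Lgr6. The 14 rows with no count were Avpr1b, Lemd1, Gm10188, Lrrn2, Golt1a, both Gm28040 rows, Kiss1, 1 of the Zc3h11a rows, Zbed6, Optc, Fmod, Myog and Mgat4e, and the 3 with at most 3 counts Cntn2, Nfasc and Adora1. The summed level of all members was 1713 to 2723 CPM per library. Without Ctse, Ren1 and Chil1 it was 1579 to 1723 CPM. At the top of that narrow range were M_WT_6258 and M_WT_6255, at 1719 and 1723 CPM. Of this, Ppp1r12b gave 90.5 and 170.7 CPM, against 30.8 to 56.4 CPM in the other libraries. The 2 libraries in which Ctse was low and Ren1 and Chil1 were off were thus not low in this sum, which includes Ppp1r12b.

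Next to Ctse, Fam72a on the near side was at 1.81 to 3.26 CPM in all libraries, and Avpr1b, a vasopressin receptor, had no count in any. On the far side, Rab7b, a GTPase of late endosomes, was at 20.8, 17.0 and 10.8 CPM in M_WT and 22.3, 35.4 and 51.9 CPM in M_KO. Slc26a9, an anion transporter, was close to its limit of detection, at 1.82 CPM in M_WT_5643, 1.19 CPM in F_KO_5639 and 0.10 to 0.79 CPM elsewhere. Neither Rab7b nor Slc26a9 showed the step seen in Ctse.

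The genes nearest to Ren1 were silent or little expressed. Kiss1, which encodes kisspeptin, and both Gm28040 rows had no count. Etnk2, an ethanolamine kinase gene and the next member past Ren1, was at 0.64, 1.92 and 1.01 CPM in M_WT and 0.28, 0.31 and 0.24 CPM in M_KO, so its 2 highest libraries were the very ones in which Ren1 had 0 counts. The next gene, Sox13, a transcription factor gene, ran from 0.80 CPM in M_WT_6258 to 3.29 CPM in F_KO_5639.

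Around Chil1, Btg2, an antiproliferative gene induced by p53, was at 73.3 to 144.5 CPM in all libraries. Chit1 had 0 to 9 counts per library, its highest in M_WT_6255, where Chil1 was off. On the other side, Mybph, a muscle myosin-binding protein gene, had at most 6 counts, with 0 in M_WT_6258, M_WT_6255, M_KO_5642 and F_WT_5638. Adora1, an adenosine receptor gene, had at most 1. Of these 4 neighbours Btg2 alone was expressed highly enough to show such a step, and it did not.

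Several members with general cell roles varied little. Zc3h11a, an mRNA export factor gene whose row overlaps Gm38394 and Zbed6, ran from 32.2 to 37.0 CPM, and Mdm4, a p53 inhibitor gene, from 166.5 to 199.5 CPM. Rbbp5, a core subunit of the H3K4 methyltransferase complexes in which menin can take part, ran from 29.1 to 37.1 CPM. Kdm5b, which removes H3K4 methylation, varied more, from 27.0 CPM in M_KO_5642 to 57.6 CPM in M_WT_5643. Nucks1, Elk4, Mfsd4a, Dstyk, Tmem81, Tmem183a, Cyb5r1 and Gm38394 each stayed within a 2-fold range. Ppfia4 (2.05 to 4.91 CPM) and Klhl12 (8.82 to 20.7 CPM) varied somewhat more, with their lowest values in F_KO_5639 and F_WT_5638. Ppp1r15b, a phosphatase subunit that reverses the block of translation under stress, was the next most abundant member per length after Chil1, at 33.3 to 63.6 FPKM, followed by Btg2 (26.1 to 52.1 FPKM), Adipor1, an adiponectin receptor (24.7 to 35.0 FPKM), Ctse (1.17 to 64.9 FPKM) and Snrpe, a spliceosome protein (11.4 to 32.7 FPKM).

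**Figure D2:**
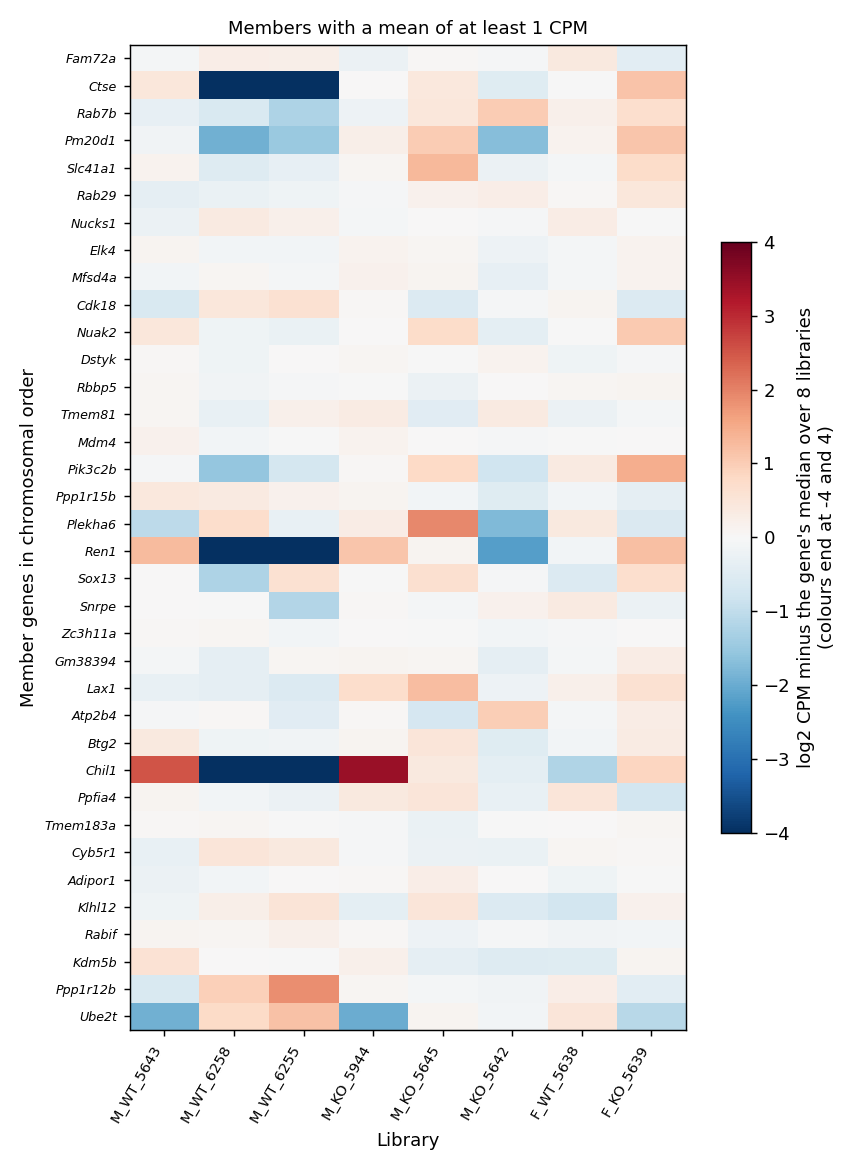
Log2 CPM of the 36 members with a mean of at least 1 CPM in each library, minus the median of the gene over the 8 libraries, with genes in chromosomal order and colours that end at -4 and 4. The dark blue cells of Ctse, Ren1 and Chil1 in M_WT_6258 and M_WT_6255 are not matched by any other row, although several rows vary in other libraries.

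Ranges were taken on log2 CPM with a prior count of 2 reads, scaled to library size. Over the 36 members with a mean of at least 1 CPM, 9 (25.0%) had a highest library at least 4-fold over the lowest. The share was 11.6% for the 11061 protein-coding genes at that level. In the stretches of 3.5 Mb on either side it was 6 of 32 (18.8%). Since the stretch was picked for such genes, nothing is read from its share. The median range was 2.22-fold in the block, 1.98-fold in the flanks and 1.73-fold over all these genes. Besides Ctse, Ren1 and Chil1 the 9 were Rab7b, Pm20d1, Pik3c2b, Plekha6, Ppp1r12b and Ube2t.

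None of these 6 showed the step of Ctse, Ren1 and Chil1. Rab7b was lowest in M_WT_6255 and M_WT_6258 (10.8 and 17.0 CPM), with M_WT_5643 next at 20.8 CPM. Outside the 9, Slc41a1 and Lax1 were also lowest in M_WT_6258 and M_WT_6255. Slc41a1 was at 17.0 and 19.5 CPM there, with M_KO_5642 next at 21.0 CPM. Lax1 was at 2.88 and 2.48 CPM there, with M_WT_5643 next at 2.95 CPM. Pm20d1, an enzyme gene for N-acyl amino acids that lies 0.16 Mb from Ctse, was low in M_WT_6258 and M_WT_6255 (0.53 and 0.76 CPM) but equally low in M_KO_5642 (0.64 CPM), against 2.07 to 5.01 CPM elsewhere. Pik3c2b, a class II phosphoinositide 3-kinase gene, ran from 2.02 CPM in M_WT_6258 to 16.6 CPM in F_KO_5639 without a wide step. Plekha6 was highest in M_KO_5645 (5.28 CPM) and lowest in M_KO_5642 (0.32 CPM), within 1 group.

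Some members ran the other way, highest in the 2 libraries in which Ctse was low and Ren1 and Chil1 were off. Cdk18, a cyclin-dependent kinase gene 0.47 Mb from Ctse, was at 8.04 and 9.01 CPM in M_WT_6258 and M_WT_6255 and 3.84 to 6.34 CPM elsewhere. Cyb5r1, a cytochrome b5 reductase gene, was at 114.2 and 106.1 CPM there and 65.9 to 85.3 CPM elsewhere, and Etnk2 had the same order. Ppp1r12b, a myosin phosphatase subunit gene, was highest in M_WT_6255 and M_WT_6258, at 170.7 and 90.5 CPM, against 30.8 CPM in M_WT_5643 and 35.0 to 56.4 CPM in the 5 remaining libraries. Syt2, a synaptotagmin gene that overlaps it on the opposite strand, was on in M_WT_6255 alone, at 1.87 CPM, and with the strand setting not known their reads may be mixed. Ube2t, a ubiquitin-conjugating enzyme gene of the Fanconi DNA repair pathway, was low in M_WT_5643 (0.59 CPM), M_KO_5944 (0.57 CPM) and F_KO_5639 (1.10 CPM) and at 2.32 to 5.72 CPM elsewhere, again across genotypes.

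**Figure D3:**
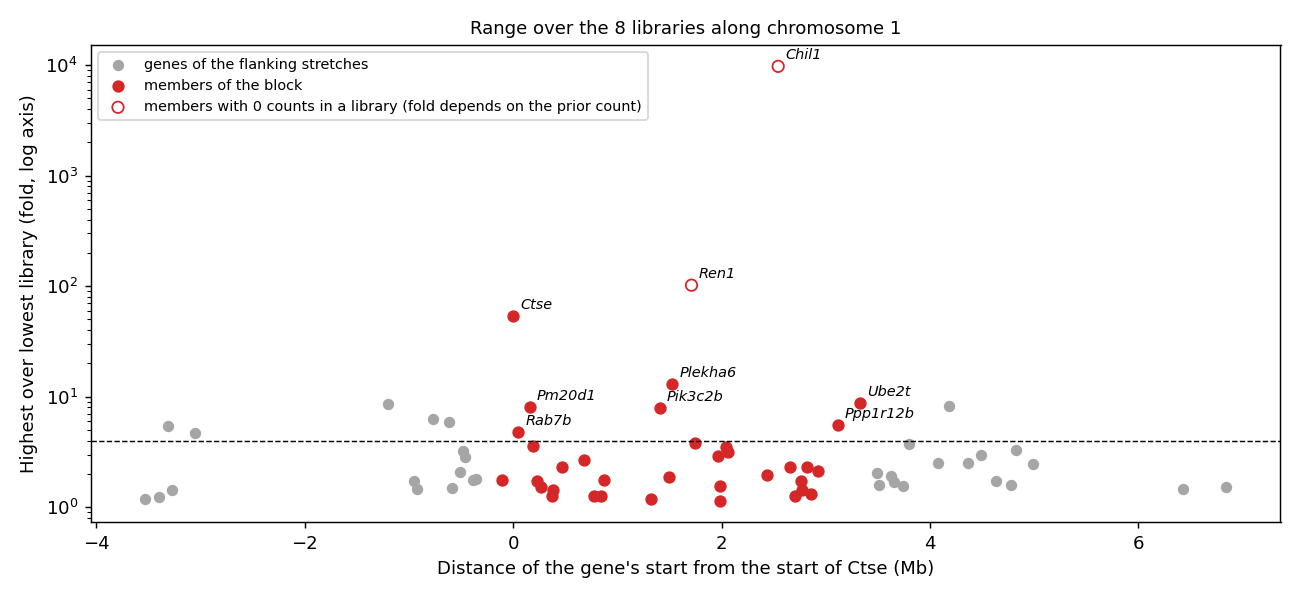
Highest over lowest library (fold, log axis) for genes with a mean of at least 1 CPM, against the distance of the gene's start from the start of Ctse in Mb, with members in red, flanking genes in grey and a dashed line at 4-fold. Ctse, Ren1 and Chil1 lie among members that range from under 2-fold to over 4-fold, and the folds of Ren1 and Chil1 (open circles) depend on the prior count because they hold libraries with 0 counts.

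The bounds of the stretch did not coincide with a change in pattern. The first members inside it were Fam72a and Avpr1b, and the last Ube2t and Lgr6, which had at most 0.22 CPM. Just outside lay Ikbke (334.5 to 587.7 CPM) and Srgap2 (75.4 to 137.1 CPM) before it, and Ptpn7 (61.9 to 125.8 CPM) and Arl8a (106.6 to 168.8 CPM) after it. Ptpn7, which codes for a lymphoid tyrosine phosphatase, had its highest levels in M_WT_6258 and M_WT_6255, at 125.8 and 118.3 CPM against 61.9 to 89.6 CPM elsewhere. Srgap2 had its lowest levels in the same 2 libraries, at 75.4 and 87.1 CPM against 95.4 to 137.1 CPM elsewhere.

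How rare the step was over the genome was measured by sorting the 8 libraries for each gene and taking the widest step between neighbours. Of 11061 protein-coding genes, 9 (0.0814%) had a widest step of at least 4-fold with M_WT_6258 and M_WT_6255 alone below it, and 3 of these were Ctse, Ren1 and Chil1, out of 36 members. Because these genes chose the stretch, that share is a description. The step was 17.2-fold for Ctse on log2 CPM with the prior count of 2 reads. No gene of the flanks was among the 9.

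The other 6 genes with this step lay on chromosomes 3, 7, 13 and 14. Sycp1, a meiotic chromosome protein gene on chromosome 3, had 0 counts in M_WT_6258 and M_WT_6255 and was at 3.51 to 5.09 CPM in the other libraries. Trim34b, a tripartite motif gene on chromosome 7, was at 0.53 and 0.41 CPM in the 2 libraries and at 4.30 to 15.6 CPM elsewhere. The zinc finger gene Zfp429, the glutathione transferase relative Mgst2, Gm7324 and the olfactory receptor gene Olfr482 completed the set. Low or absent RNA in these 2 libraries was therefore not confined to chromosome 1.

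By Pearson correlation of log2 CPM over the 8 libraries, given without a p, the genes most like Ctse were Apobec3, a cytidine deaminase that restricts retroviruses (0.99), Tdg, a DNA glycosylase (0.98), Sycp1 (0.98), Zfp868 (0.98) and Tubb2b (0.97). For Ren1 they were Tdg (0.96), Ctse (0.96), Tubb2b (0.96), Chil1 (0.95) and Ankrd50 (0.95), and for Chil1 they were Trim34b, Chd9, Tdg, Gm7324 and Tmem221 (0.98 to 0.97). The libraries form 2 clusters in these genes, so the values mostly record that separation. Tdg was at 13.7 and 13.9 CPM in M_WT_6258 and M_WT_6255 and at 31.6 to 47.5 CPM elsewhere, and Apobec3 at 16.8 and 15.6 CPM against 44.2 to 66.1 CPM, so each was reduced in those 2 libraries but not absent. Of the 50 genes most like each of Ctse, Ren1 and Chil1, 2 were members in each case, namely the other two. Among the remaining members the highest value with Ren1 was that of Pm20d1 (0.85), at rank 125.

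The genotype comparison asks whether the stretch differed with Men1 loss. In M_KO against M_WT, edgeR called 0 of the 38 members it tested, and 0.022% of all 13646 genes. DESeq2 called 0 of 39 members (1.21% of all genes), and the authors' deposited table called 0 of 49 (0.553%). The unadjusted edgeR p was under 0.05 for 5 of the 38 members (13.2%) and for 1304 of all genes (9.56%). The median log2 fold change of the 38 was 0.08, with 24 above and 14 below 0, against a median of 0.01 over all genes.

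For the 3 genes the spread within M_WT was larger than the difference between groups. Ctse was at 45.6 ± 72.4 CPM in M_WT and 96.5 ± 29.7 CPM in M_KO (SD, n = 3 each), a log2 fold change of 1.08 (SE 1.28). Ren1 was at 3.26 ± 5.65 and 4.62 ± 3.96 CPM (0.48, SE 1.71), and Chil1 at 163.0 ± 282.2 and 373.5 ± 493.9 CPM (1.19, SE 2.34). DESeq2 gave Chil1 no adjusted p. These differences depended on the libraries and the model. With a term for numbers that begin with 56 they were 2.02 for Ctse, 1.60 for Ren1 and 3.86 for Chil1, and with limma on log2(FPKM + 1) they were 2.36, 0.75 and 3.60. Without M_WT_6258 or M_WT_6255 that of Ctse was 0.51 or 0.53. Without M_WT_5643 the log2 fold change of Ctse was 4.67 and edgeR called it, with an adjusted p of 0.0315, and without both M_WT_6258 and M_WT_6255, a setting chosen after the data were seen, it was -0.45. For Ren1 and Chil1 the values without those 2 libraries were -1.11 and -0.41.

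**Figure D4:**
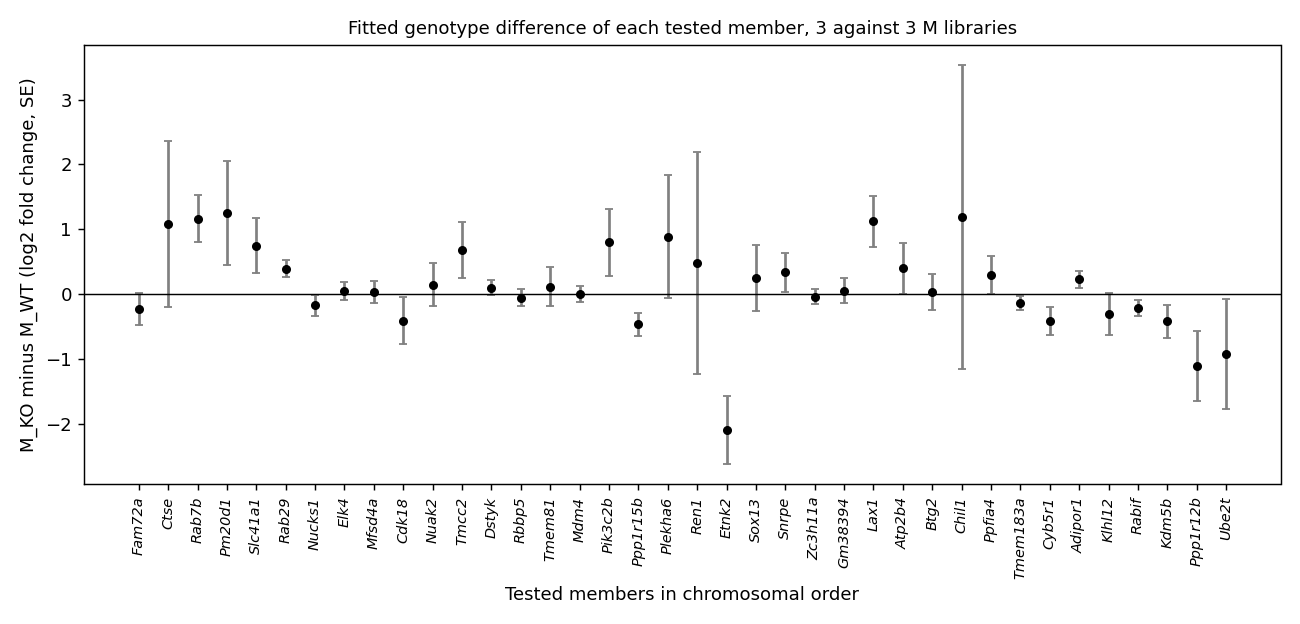
Log2 fold change of M_KO minus M_WT from edgeR for the 38 tested members in chromosomal order, with standard errors as bars. Ctse, Ren1 and Chil1 have the widest bars, most members lie near 0, and Etnk2 is the lowest at -2.09.

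A few other members did not overlap between the M groups. In 5 of 38 (13.2%, against 9.09% of all tested genes) every M_KO library lay above every M_WT library: Rab7b, Rab29, Tmcc2, Lax1 and Adipor1. In 3 (7.89%, against 6.95%) every M_KO library lay below: Etnk2, Ppp1r15b and Rabif. Both shares are near the background.

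Rab7b was at 16.2 ± 5.04 CPM in M_WT and 36.6 ± 14.8 CPM in M_KO (SD, n = 3 each). Lax1, an adaptor that restrains lymphocyte receptor signalling, was at 2.95, 2.88 and 2.48 CPM in M_WT and 6.11, 8.86 and 3.19 CPM in M_KO (log2 fold change 1.12, SE 0.39). Rab29, a GTPase that recruits the kinase LRRK2, was at 28.2 ± 1.93 and 37.2 ± 3.79 CPM (0.39, SE 0.13). Ppp1r15b was at 354.5, 337.6 and 299.8 CPM in M_WT and 284.6, 245.8 and 190.6 CPM in M_KO (-0.47, SE 0.18). None of these passed the adjusted threshold by any tool used.

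The F pair has 1 library per genotype and no replicate check. Differences of log2 CPM (F_KO minus F_WT) were 1.15 for Ctse, 1.32 for Ren1 and 2.06 for Chil1, with all 3 genes expressed in both libraries. Of the 8 genes that did not overlap in M, 6 had the same sign in F: Rab7b (0.47), Lax1 (0.42), Rab29 (0.41), Tmcc2 (0.32), Adipor1 (0.15) and Ppp1r15b (-0.26). Etnk2 (0.77) and Rabif (0.05) had the other sign. Signs were not counted for non-overlapping genes outside the stretch, so nothing is read from this count. In a fit of genotype and letter to all 8 libraries, edgeR called 0 of 38 members by genotype (0.00727% of 13751 genes), 4 members (10.5%) and 9.48% of all genes had an unadjusted p under 0.05, and DESeq2 called 0 members. The contrast of F with M libraries was not used to choose the stretch. The values of Ctse, Ren1 and Chil1 that had been seen enter it all the same. Between F and M, edgeR also called 0 of 38 members (0.0291% of all genes). Its unadjusted p was under 0.05 for 2 members (5.26%) and 3.08% of all genes, and DESeq2 called 0 members.

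Related genes elsewhere did not show the step. Of the chitinase family outside the stretch 3 of 8 genes were tested and 0 called by either tool. Chil3, the abundant macrophage chitinase-like protein Ym1, was at 26.6, 11.2 and 13.6 CPM in M_WT and 28.3, 29.5 and 59.1 CPM in M_KO, but at 11.1 CPM in F_WT_5638, where Chil1 was expressed. Among the aspartic proteases Ctsd, the main lysosomal one, was at 1457 to 1994 CPM, highest in M_WT_6258, and Napsa at 13.1 to 35.6 CPM, with 0 of 3 tested called. The cysteine and serine cathepsins were tested for 11 of 12, with 0 called by edgeR or DESeq2 and a median log2 fold change of -0.01.

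The genes of the renin-angiotensin system were partly silent. Angiotensinogen (Agt) and the angiotensin receptor genes Agtr1a, Agtr1b and Agtr2 had no count in any library. Ace, which makes angiotensin II, was at 1.62 to 5.59 CPM, and Atp6ap2, the (pro)renin receptor, at 123.6 to 223.8 CPM. The aminopeptidase genes Lnpep and Anpep, whose products process angiotensin peptides, were at 163.4 to 282.0 CPM and 54.8 to 178.5 CPM. Of the 12 listed genes 4 were tested and 0 called by either tool.

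Markers of other cells were compared because Chil1 and Ctse are not specific to macrophages. The 9 B cell markers summed to 219.3, 113.4 and 106.3 CPM in M_WT, 132.9 to 377.9 CPM in M_KO, and 265.6 and 371.8 CPM in F_WT_5638 and F_KO_5639, and all were detected. M_WT_6258 and M_WT_6255 were thus lowest here too, and M_KO_5642, at 132.9 CPM, was the next. All 9 were higher on average in M_KO than in M_WT by the fitted log2 fold change (median 0.78), with 0 called. Blk, a B cell kinase gene, was among the 50 genes most like Ctse (0.93) and Ren1 (0.91), and Cd79b, a B cell receptor subunit gene, among those most like Ctse (0.93). The part of such cells in the result was not tested, and in bulk RNA fewer cells of a type and less RNA per cell cannot be told apart. The 12 neutrophil markers summed to 230.5 to 596.5 CPM in M_WT, 290.1 to 712.7 CPM in M_KO, and 298.8 and 656.7 CPM in F_WT_5638 and F_KO_5639. M_WT_6258 was lowest, and M_WT_6255 (324.5 CPM) lay above M_KO_5642 and F_WT_5638. Csf3r and Lcn2 gave most of that sum, and the defining neutrophil genes Ly6g, Camp, Ngp and Retnlg were at most 0.599 CPM, with 0 in at least 1 library each. Several of these markers were lowest in M_WT_6258 and M_WT_6255. Mmp9, a secreted protease, was lowest in both, at 6.39 CPM in M_WT_6258, and at 16.4 to 44.0 CPM in the other 6, and S100a9, a calcium-binding protein, at 0.21 and 0.46 CPM against 0.48 to 8.40 CPM. Lcn2, an iron-scavenging protein, was highest in M_WT_5643 and M_KO_5944 (194.6 and 144.8 CPM), the libraries with the most Chil1, and lowest in M_KO_5642 (13.5 CPM). S100a8 ran from 2.52 CPM in F_WT_5638 to 7.70 CPM in M_KO_5642. The part of neutrophils in the levels of Chil1 was not tested. The mast cell and basophil markers were lowest in M_KO_5642 (102.8 CPM). M_WT_6258 and M_WT_6255 came next, at 306.0 and 352.4 CPM, against 394.6 to 1129 CPM in the remaining libraries. The part of mast cells and basophils in the result was not tested. The dendritic cell markers ran from 16.7 to 49.3 CPM with M_WT_6258 highest. Markers of resident large peritoneal macrophages were at 5015 to 5587 CPM in M_WT and 2913 to 7780 CPM in M_KO. Eosinophil, T and NK cell and mesothelial markers each summed to under 3 CPM in every library.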

How the data were processed

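RNA of 8 libraries was analysed from 2 deposited tables of the series and the authors' comparison of M_KO with M_WT. The deposited counts are whole, unnormalized read counts per gene, and the authors' FPKM values are scaled to gene length and library size. The log2 fold changes and p-values of that comparison are the authors' own. Among tools, the submitters' processing notes list DESeq2 (1.16.1), featureCounts (1.5.0-p3) and HISAT2 (2.0.5), and as builds mm10 and GRCm38. How strand and multi-mapping reads were handled is not given in the sources used here. Per the labels' protocols the kit was NEBNext Ultra RNA.

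Groups came from sample titles. Each title has its own number, shared by no other. Counts were fitted with edgeR 4.0.16 in R 4.3.3 (quasi-likelihood test, TMM scaling, default expression filter on genotype, Benjamini-Hochberg adjustment over all genes, threshold 0.05), checked first on simulated counts. Of 64 members, 38 passed that filter. Standard errors were derived from the F statistic. DESeq2 1.42.0 and limma 3.58.1 on log2(FPKM + 1) served as alternatives. Members, gene lists and rules were chosen with earlier results of these data known. Named genes are Ctse, Ren1 and Chil1, their nearest members, members that switch or range at least 4-fold, the 6 most abundant per length, and members chosen by role. Genes that did not overlap, and the widest step between libraries, were added after the values were seen. The count of value columns that match no sample is 0.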

Additional observations from a re-analysis of the deposited data

How the results depend on the processing

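The count of 0 called members in M_KO against M_WT stayed 0 with DESeq2, RLE scaling, no or a stricter filter, limma on log2(FPKM + 1), all 8 libraries in the fit, a term for sample numbers beginning with 56, and without M_WT_6258 and M_WT_6255 together. It ranged from 0 to 1 when each library was left out, the 1 being Ctse without M_WT_5643. Over all genes the count went from 3 to 188 with DESeq2, 16 without a filter, 0 without M_WT_6258 and M_WT_6255 together and 0 to 21 with 1 library left out. For genotype over 8 libraries the 1 call became 132 with DESeq2, 7 without a filter, 0 without those 2 libraries and 0 to 3 with 1 left out. For F against M the 4 calls became 16 with DESeq2 and 4 to 9 with 1 library left out, and no member was called by genotype over 8 libraries or by letter under any setting run. Left-out libraries moved the log2 fold change of Ren1 between -0.35 (without M_KO_5944) and 9.54 (without M_WT_5643) and that of Chil1 between -0.88 and 12.65 for the same libraries. For Ren1 it was -0.11 and -0.10 without M_WT_6258 or M_WT_6255. Without M_WT_5643 the remaining M_WT libraries had 0 to 2 counts of either gene, so those values depend on the prior count. Without M_WT_6258 and M_WT_6255 together the 3 genes reversed sign (Ctse -0.45, Ren1 -1.11, Chil1 -0.41), with 1 M_WT library assumed to vary like the others. The 4 members that switch between off and on became 2 with on set at 2 CPM or off at 0 counts, 2 to 4 with 1 library left out and 0 without M_WT_6258 and M_WT_6255 together. The 9 members with a 4-fold range became 4 on log2(FPKM + 1), a scale that compresses low values. Genes under a few CPM, such as Etnk2, Syt2, Slc26a9 and Chit1, rest on few counts. No paired analysis was possible because no sample number is shared between groups.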

Other observations

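Over the 36 members with a mean of at least 1 CPM, the highest library was F_KO_5639 for 9 (25.0%, against 14.3% of all protein-coding genes at that level) and the lowest was M_WT_6258 for 8 (22.2%, against 14.7%). Among the members highest in F_KO_5639 were Ctse, Nuak2, a stress kinase gene of the AMPK family (43.4 CPM, against 16.3 to 35.0 CPM elsewhere), and Pik3c2b. Slc41a1, a magnesium transporter gene 0.19 Mb from Ctse, was highest in M_KO_5645 at 60.7 CPM, with F_KO_5639 next at 41.1 CPM and 17.0 to 27.3 CPM elsewhere. Atp2b4, the plasma membrane calcium pump gene, was at 227.3 CPM in M_KO_5642 and 72.4 to 141.0 CPM elsewhere, so a single library set its range.

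In the flanking stretches, Il10, the interleukin-10 gene, was at 23.5, 25.5 and 9.37 CPM in M_WT, 7.02, 7.17 and 4.19 CPM in M_KO, and 7.52 and 7.02 CPM in F_WT_5638 and F_KO_5639. For Il10 in M_KO against M_WT, DESeq2 gave an adjusted p of 0.0143 and edgeR 0.434. Cd55, a complement regulator gene, was at 229.2 CPM in M_KO_5645 and 126.8 CPM in F_KO_5639 and at 26.7 to 79.9 CPM elsewhere. Neither followed the pattern of Ctse, Ren1 and Chil1.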
